A study of Mus musculus with 4 samples.

Results

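The angiopoietins Angpt1 and Angpt2, the Tie receptors Tek and Tie1, and the angiopoietin-like genes Angptl4 and Angptl2 were followed through single-cell RNA profiles of hypoxic mouse lung. The 6 genes were taken by symbol, out of 31253 genes in the count matrices, and all 6 were present. Vegfr2Y949F mice, per the genotype's name, have phenylalanine in place of a tyrosine of VEGFR2, which is the product of Kdr and binds VEGF-A, and WT mice served as controls. All mice were on a C57BL/6J background, began at 6 to 8 weeks of age, and spent 6 weeks in hypoxia. Each genotype had 2 libraries, A and B, each from a pool of 2 mice, and no normoxic library was analysed here. UMI counts do not show the changed codon, so the genotype rests on the labels alone.

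Angpt1 and Angpt2 are secreted ligands of the receptor tyrosine kinase Tek, also called Tie2, on endothelial cells. Angpt1 from cells around the vessel activates Tek and keeps vessels quiet and tight, while Angpt2, which endothelial cells can store and release, blocks or only partly activates Tek depending on context. Tie1 binds no angiopoietin strongly by itself and modifies Tek signalling from the same membrane. Angptl4 and Angptl2 share the protein fold of the angiopoietins but do not bind the Tie receptors: Angptl4 inhibits lipoprotein lipase and is induced by hypoxia and by fatty acids, and Angptl2 is a secreted factor linked to inflammation.

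The 2 receptor genes and Angptl2 had an entry in the RefSeq promoter table (GRCm38.p6), and the part of the 250 bases before the RefSeq start that lay in no GENCODE exon is shown so that the receptors' promoters can be set side by side. The RefSeq start was the GENCODE start for Tek, lay 108 bases before it for Angptl2, and lay 212 bases inside the gene for Tie1, so for Tie1 only the 38 bases farthest from the RefSeq start are shown. Capitals mark GGAA, the core bound by ETS factors such as those of endothelial cells, or its other strand TTCC, searched on both strands. Each line runs 5' to 3' on the strand of the gene.
Tek: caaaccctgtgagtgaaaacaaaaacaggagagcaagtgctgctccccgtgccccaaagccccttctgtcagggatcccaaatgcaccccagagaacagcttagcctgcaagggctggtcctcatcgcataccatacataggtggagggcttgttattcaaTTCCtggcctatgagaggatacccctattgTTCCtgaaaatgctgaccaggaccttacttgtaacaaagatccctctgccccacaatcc
Tie1: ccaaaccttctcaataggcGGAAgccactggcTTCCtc
Angptl2: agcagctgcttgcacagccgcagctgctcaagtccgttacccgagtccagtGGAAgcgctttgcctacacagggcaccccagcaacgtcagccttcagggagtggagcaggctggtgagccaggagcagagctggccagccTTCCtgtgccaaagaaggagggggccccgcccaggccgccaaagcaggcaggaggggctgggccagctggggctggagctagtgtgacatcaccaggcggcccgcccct
The Tek stretch (chr4:94739039-94739288, plus strand) held 2 matches in 250 bases, and so did the Angptl2 stretch (chr2:33215711-33215960, plus strand). Over the same 250 bases, 93.4% of 27025 promoters held at least 1 match and 76.9% held as many or more. The Tie1 stretch (chr4:118490062-118490099, minus strand) was 38 bases long and held 2 matches, against 33.3% of promoters with at least 1 match in the same 38 bases and 6.02% with as many or more. Those 38 bases lie directly before the GENCODE start of Tie1. In the other promoters they were placed by the RefSeq start and not cleared of exons, so the shares are not of like stretches. A match is a description of the letters and does not show that a factor binds there.

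Cells had at least 500 genes and 1000 UMIs, and after the cells with the top 8% of doublet scores were removed there were 11446 and 9304 cells in the Vegfr2Y949F libraries, and 10783 and 9715 cells in the WT libraries. The median cell had 4312 and 5548.5 UMIs in the Vegfr2Y949F libraries and 4339 and 5472 in the WT libraries, and in each genotype cells of library B held more UMIs than those of library A. Clusters were named as 20 cell types by marker genes, so a name such as pericyte stands for pericyte-like clusters. The names were assigned anew here, and the authors' own may be others. None of the 6 genes was used to cluster or to name cells. Between 7.17% and 11.7% of the cells of a library stayed unnamed, and any pair of libraries shared 43 to 70 cell barcodes. Levels are CPM, a gene's UMIs per 1000000 UMIs summed over the cells of 1 type in 1 library. Library values are given in the order A, B. Fewer transcribing cells and less RNA per cell cannot be told apart in such sums.

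Most Angpt1 UMIs lay in stromal cells and most Tek and Tie1 UMIs in blood endothelial cells, while Angpt2 was found in both (the plot of the 6 genes by cell type). Of the 16732 Angpt1 UMIs in kept cells, on average 80.8% per library lay in the 5 stromal types (71.2 to 91.0% over the 4 libraries), with alveolar fibroblasts alone holding 63.4% and pericytes 9.29%. Of the 74007 Tek UMIs, 88.0% lay in the 4 blood endothelial types, and general capillary cells held 64.5%. Tie1, with 63867 UMIs, had 87.9% in the same 4 types. Angpt2, with 2524 UMIs, had 45.6% in stromal types (38.3 to 61.4%), 27.4% in blood endothelial types (16 to 35.1%) and 11.7% in lymphatic endothelial cells (0.437 to 27.0%). Angptl4, with 15140 UMIs, had 79.8% in stromal types, and Angptl2, with 5724 UMIs, had 78.1%. These shares follow the numbers of cells captured, and of cells left unnamed, as well as the level per cell.

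**Figure D1:**
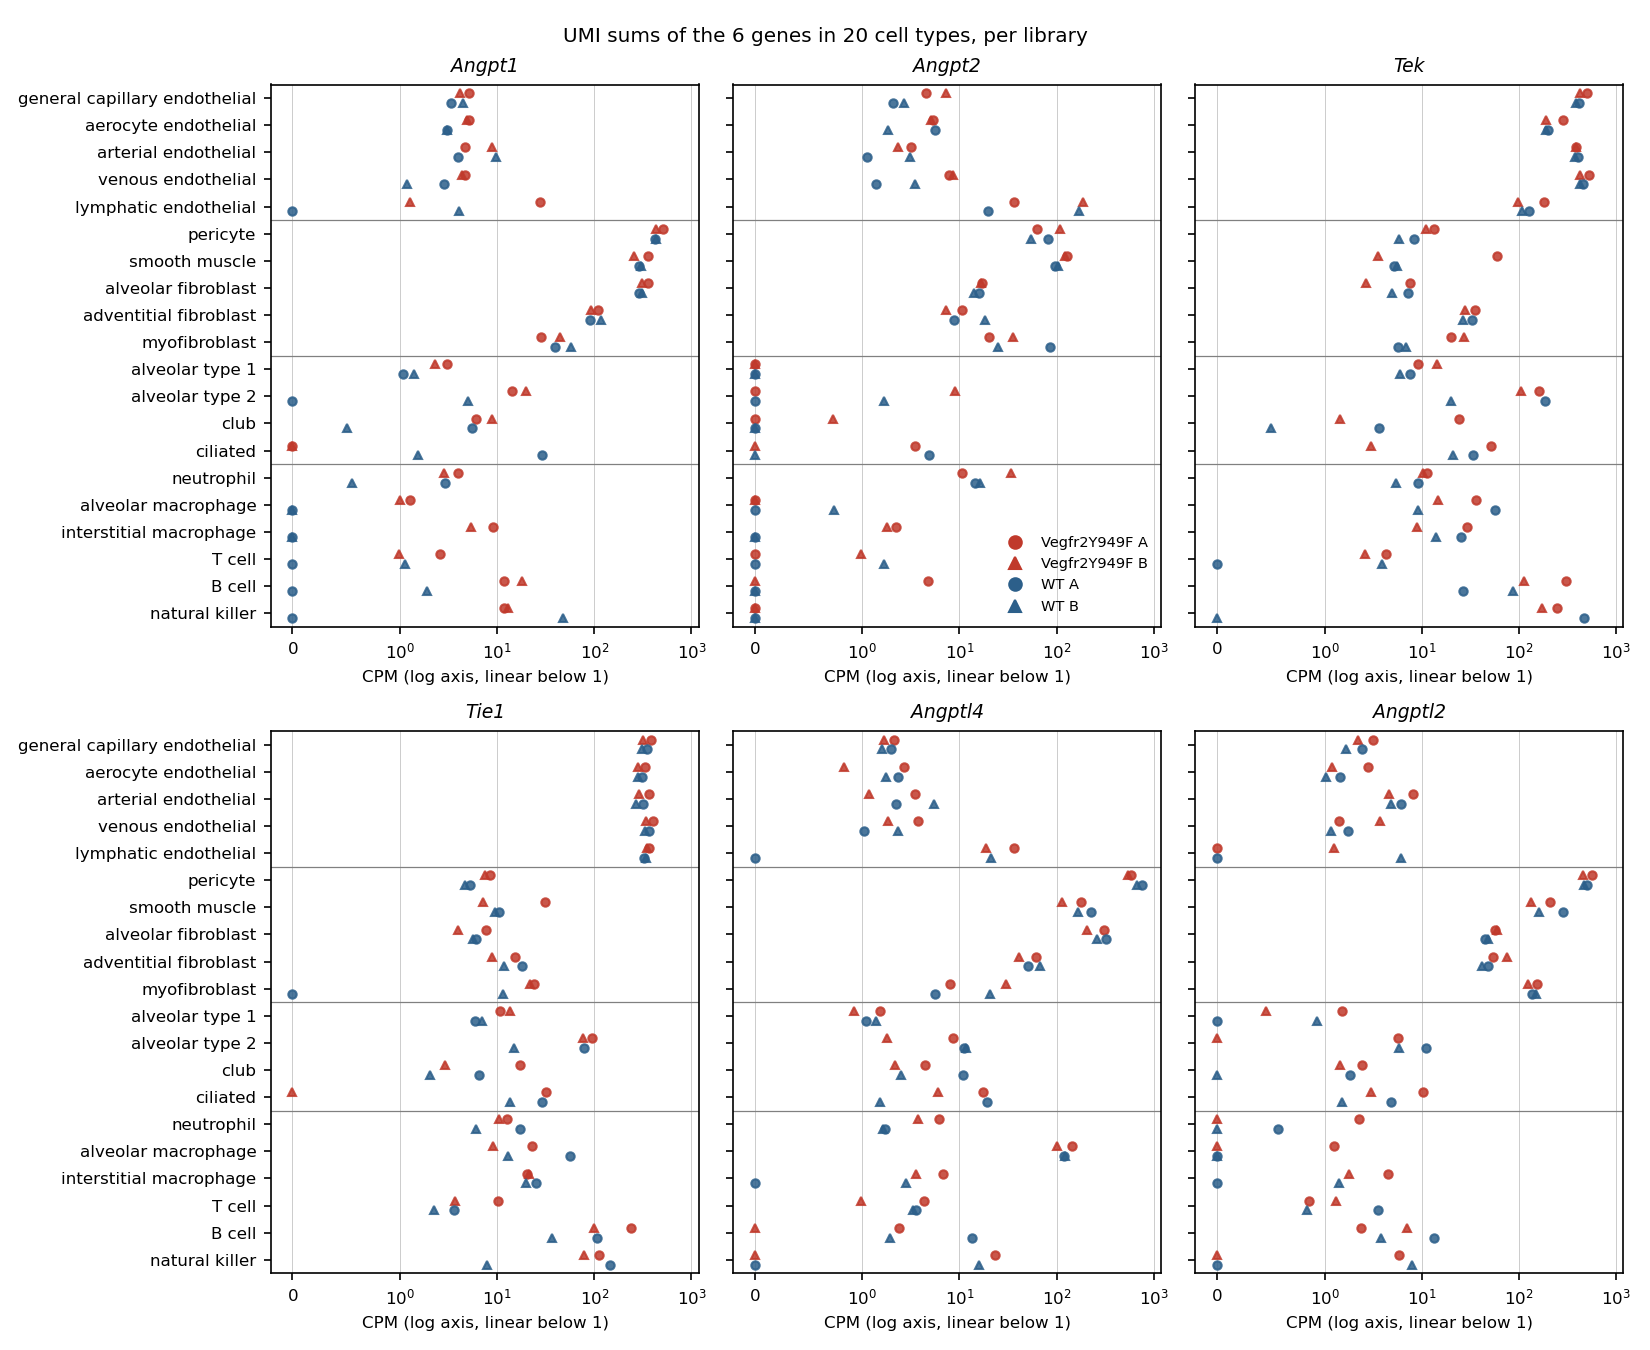
CPM of each gene (log axis, linear below 1) in 20 cell types, with 1 point for each library: Vegfr2Y949F in red above WT in blue, circles for A and triangles for B. Tek and Tie1 sit in the endothelial rows, Angpt1, Angptl4 and Angptl2 in the stromal rows, and Angpt2 spreads over smooth muscle, lymphatic and pericyte rows.

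Angpt1, the activating ligand, had its highest CPM in pericytes, the cells wrapped around capillaries. There it stood at 507 and 430 CPM in the Vegfr2Y949F libraries, against 422 and 431 CPM in the WT libraries. The 4 values lay close together, and the B library of Vegfr2Y949F mice lay inside the WT range. Alveolar fibroblasts had 353 and 313 CPM in Vegfr2Y949F libraries and 291 and 312 CPM in WT libraries, so every library of either genotype was below every pericyte value. Smooth muscle had 357 and 255 CPM in Vegfr2Y949F libraries and 289 and 304 CPM in WT libraries, which overlapped the alveolar fibroblasts. Adventitial fibroblasts followed at 102 ± 12.6 CPM and myofibroblasts at 42.1 ± 11.9 CPM (SD, n = 4 libraries), each apart from the type above it. In all other types the mean was 18 CPM or less, and from myofibroblasts down each type overlapped the next. The alveolar fibroblast clusters differed among themselves, with 384, 352 and 169 CPM over all libraries in clusters 4, 12 and 14.

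Summed over all stromal cells, Angpt1 had 318 and 282 CPM in Vegfr2Y949F libraries and 260 and 279 CPM in WT libraries, while blood endothelial cells had 5.05 and 4.53 CPM in Vegfr2Y949F libraries and 3.28 and 4.08 CPM in WT libraries. Its stromal sum was higher than its endothelial sum in all 4 libraries, by 6.11 ± 0.08 on the log2 scale (SE, edgeR, adjusted p = 2.3e-12). That contrast called 78.8% of 15047 genes, 39.9% higher and 38.9% lower in stromal cells, so a call by itself says little. All 6 genes were called: Angpt1, Angpt2, Angptl4 and Angptl2 were higher in stromal cells, and Tek and Tie1 were lower. The log2 differences were 2.57 ± 0.19 for Angpt2, 7.06 ± 0.09 for Angptl4, 5.34 ± 0.10 for Angptl2, -5.15 ± 0.13 for Tek and -5.41 ± 0.10 for Tie1 (SE). Against alveolar fibroblasts, pericytes had a log2 difference in Angpt1 of 0.18 ± 0.09, which did not pass (adjusted p = 0.0686). Unlike CPM, that fit scales the sums by TMM, so the clear gap in CPM between these types depends on the scaling. Of the 6 genes, 3 were called in that contrast, which called 58% of 11839 genes.

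Angpt2, the context-dependent ligand, had its highest mean over the 4 libraries in smooth muscle, while in both B libraries lymphatic cells were higher. Smooth muscle reached 129 and 122 CPM in Vegfr2Y949F libraries and 96.4 and 103 CPM in WT libraries. Both Vegfr2Y949F values were above both WT values, and 23.4% of genes tested in all stromal sums also had genotypes that did not overlap. The share within smooth muscle was not computed. Pericytes had 62.7 and 108 CPM in Vegfr2Y949F libraries and 82.7 and 54.9 CPM in WT libraries, with the genotypes overlapping. Alveolar fibroblasts were lower and tight, at 17.2 and 16.7 CPM in Vegfr2Y949F libraries and 16.1 and 14.3 CPM in WT libraries. The log2 difference between pericytes and alveolar fibroblasts was 1.94 ± 0.14 (SE, edgeR, adjusted p = 2.2e-17). Myofibroblasts spread more widely, with 20.01 and 35.6 CPM in Vegfr2Y949F libraries and 84.9 and 25.05 CPM in WT libraries.

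Lymphatic endothelial cells, whose growth in development needs Angpt2, held Angpt2 at very unequal levels. The Vegfr2Y949F libraries had 36.4 and 189 CPM there, against 19.5 and 171 CPM in the WT libraries. Both B libraries were high and both A libraries low, in each genotype. The A libraries rested on 27 Vegfr2Y949F cells with 4 UMIs and 22 WT cells with 2 UMIs, and the B libraries on 105 Vegfr2Y949F cells with 151 UMIs and 162 WT cells with 169 UMIs. The summed lymphatic markers stood at 7192 and 7298 CPM in Vegfr2Y949F libraries and 8845 and 6579 CPM in WT libraries, without that split. Other marker sums of these cells did split by letter. Endothelial lineage markers were at 3155 and 4309 CPM in Vegfr2Y949F libraries and 3671 and 4256 CPM in WT libraries. Stromal lineage markers were at 136 and 41.4 CPM in Vegfr2Y949F libraries and 58.6 and 39.4 CPM in WT libraries. The part that cell number, the set letter or RNA of other cells plays in the Angpt2 split was not tested.

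Blood endothelial types held Angpt2 at a few CPM. In general capillary cells it was 4.55 and 7.23 CPM in Vegfr2Y949F libraries and 2.05 and 2.67 CPM in WT libraries, so the genotypes did not overlap. Venous cells had 7.89 and 8.60 CPM in Vegfr2Y949F libraries and 1.40 and 3.50 CPM in WT libraries, again without overlap. In aerocytes, the large capillary cells of gas exchange, it was 5.31 and 5.11 CPM in Vegfr2Y949F libraries and 5.60 and 1.85 CPM in WT libraries, and arterial cells averaged 2.42 ± 0.95 CPM over the 4 libraries (SD). Each type in the Angpt2 order overlapped the next. Genotypes did not overlap for 22.1% of genes tested in the sums of all blood endothelial cells. The share within single types was not computed.

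Neutrophils held 6.13% of Angpt2 UMIs, at 10.7 and 34.0 CPM in Vegfr2Y949F libraries and 14.3 and 16.4 CPM in WT libraries. Angpt1 averaged 2.55 CPM in the same cells. No Angpt2 UMI was seen in 1108 alveolar type 1 cells, which allows a share of up to 0.271% of cells with a UMI and a level of up to 0.400 CPM by counting error alone. The 117 natural killer cells had none either, which allows up to 2.56% of cells.

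Tek, the signalling receptor of both angiopoietins, was found in the sums of all blood endothelial types. In aerocytes it lay mostly in a cluster where doublets could not be told apart from cells between the capillary types, as described below. The other aerocyte cluster had far less Tek. Venous cells were highest, at 536 and 425 CPM in Vegfr2Y949F libraries and 463 and 433 CPM in WT libraries. General capillary cells had 500 and 431 CPM in Vegfr2Y949F libraries and 424 and 386 CPM in WT libraries, where both Vegfr2Y949F values were above both WT values. Without general capillary cluster 10, which is described with the genotypes, they were 471 and 377 CPM in Vegfr2Y949F libraries and 423 and 386 CPM in WT libraries, and overlapped. Genotypes did not overlap for 22.1% of genes tested in all blood endothelial sums, and the share within general capillary cells was not computed. Arterial cells were even across libraries, at 386 and 388 CPM in Vegfr2Y949F libraries and 406 and 381 CPM in WT libraries. Aerocytes were lower, at 286 and 193 CPM in Vegfr2Y949F libraries and 202 and 193 CPM in WT libraries, and all 4 values were below every general capillary value. Lymphatic cells had 129 ± 37.3 CPM (SD, n = 4). Among endothelial types, aerocytes stood apart from arterial cells above and from lymphatic cells below. Stromal types averaged at most 30.8 CPM and T cells 2.70 CPM. Within general capillary cells, clusters 0, 1, 2, 10 and 32 had 467, 350, 429, 628 and 301 CPM over all libraries. Cluster 10, the highest, had 677 and 605 CPM in Vegfr2Y949F libraries and 516 and 403 CPM in WT libraries.

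Tek also appeared in small sums of natural killer cells (247 and 175 CPM in Vegfr2Y949F libraries, 471 and 0 CPM in WT libraries) and of B cells (308 and 114 CPM in Vegfr2Y949F libraries, 26.9 and 87.7 CPM in WT libraries). These sums carried other endothelial genes too. The summed endothelial lineage markers reached 3302 and 1733 CPM in Vegfr2Y949F and 4639 and 95 CPM in WT natural killer cells, and 5131 and 2848 CPM in Vegfr2Y949F and 3875 and 1317 CPM in WT B cells. In blood endothelial cells the same markers summed to 7382 and 7200 CPM in Vegfr2Y949F libraries and 8032 and 7527 CPM in WT libraries. Alveolar type 2 cells had 163 and 106 CPM of Tek in Vegfr2Y949F libraries and 189 and 19.9 CPM in WT libraries, beside endothelial marker sums of 2609 and 1969 CPM in Vegfr2Y949F and 2144 and 462 CPM in WT cells. With these small sums in the order, every type overlapped the next in Tek level. The part that endothelial RNA plays in these Tek values was not tested.

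Tie1, the partner receptor, had means of 301 to 360 CPM over the 5 endothelial types, where Tek had 129 to 464 CPM. It stood at 399 and 344 CPM in venous cells of Vegfr2Y949F libraries and at 365 and 332 CPM in those of WT libraries. Lymphatic cells were next, at 364 and 350 CPM in Vegfr2Y949F libraries and 322 and 341 CPM in WT libraries, while for Tek they ranked below the blood endothelial types. General capillary cells had 386 and 318 CPM in Vegfr2Y949F libraries and 348 and 312 CPM in WT libraries. Arterial cells averaged 311 ± 44.1 CPM and aerocytes 301 ± 26.0 CPM (SD, n = 4 libraries each), and these 5 types overlapped step by step. All 4 aerocyte values lay above the values of the next type, B cells.

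Between capillary types the receptors differed in size of change. Aerocytes had less Tek than general capillary cells in all 4 libraries, with a log2 difference of -1.02 ± 0.05 (SE, edgeR, adjusted p = 1.62e-10). Tie1 was also lower in aerocytes, by a log2 difference of -0.19 ± 0.04 (SE, adjusted p = 0.00031). Of the 6 genes, 3 were called in that contrast, which called 56.4% of 13154 genes. The third, Angptl2, was at 1.62 CPM in aerocytes and 2.38 CPM in general capillary cells, and its call (log2 difference -0.55 ± 0.21, adjusted p = 0.0339) was lost without the Vegfr2Y949F B, WT A or WT B library (adjusted p = 0.109, 0.127 and 0.0781).

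The aerocyte value was a mixture of a pair of clusters that differed in Tek (the plot of receptors by endothelial cluster). Cluster 6, with 1840 cells, had Tek at 36.0 and 44.4 CPM in Vegfr2Y949F libraries and 23.4 and 30.2 CPM in WT libraries. Cluster 5, with 1672 cells, had 341 and 265 CPM in Vegfr2Y949F libraries and 267 and 251 CPM in WT libraries. No library of one cluster came near the other. Tie1 was close in both, at 314 and 257 CPM in Vegfr2Y949F and 321 and 240 CPM in WT libraries for cluster 6, and at 340 and 296 CPM in Vegfr2Y949F and 303 and 292 CPM in WT libraries for cluster 5. Cells with at least 2000 UMIs were thinned to 2000, and cells with fewer were left out of these shares. Of the thinned cells, 5.1% in cluster 6 and 40.1% in cluster 5 held a Tek UMI, against 45.1% and 46.5% for Tie1. The thinned Tek share was 2.42% and 1.23% of stromal cells in Vegfr2Y949F libraries and 1.57% and 1.61% in WT libraries.

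Depth and markers moved with that split. The median cell of cluster 5 had 15215 UMIs and that of cluster 6 had 5214, and 12.9% of cluster 5 cells were scored as doublets before removal, against 0.8% in cluster 6. The 9 aerocyte markers summed to 4905 CPM in cluster 5 and 11238 CPM in cluster 6, while the 9 general capillary markers summed to 5343 CPM in cluster 5 and 1012 CPM in cluster 6. Ptprb, the phosphatase that removes phosphate from Tek, is among the general capillary markers and had 1262 CPM in cluster 5 and 122 CPM in cluster 6. Doublets of both capillary types and cells between them cannot be told apart here. Leaving cluster 5 out, an alternative chosen after seeing the data, gave a log2 difference between aerocytes and general capillary cells of -3.81 for Tek (edgeR, adjusted p = 7.8e-20) and -0.37 for Tie1 (adjusted p = 2.2e-05).

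**Figure D2:**
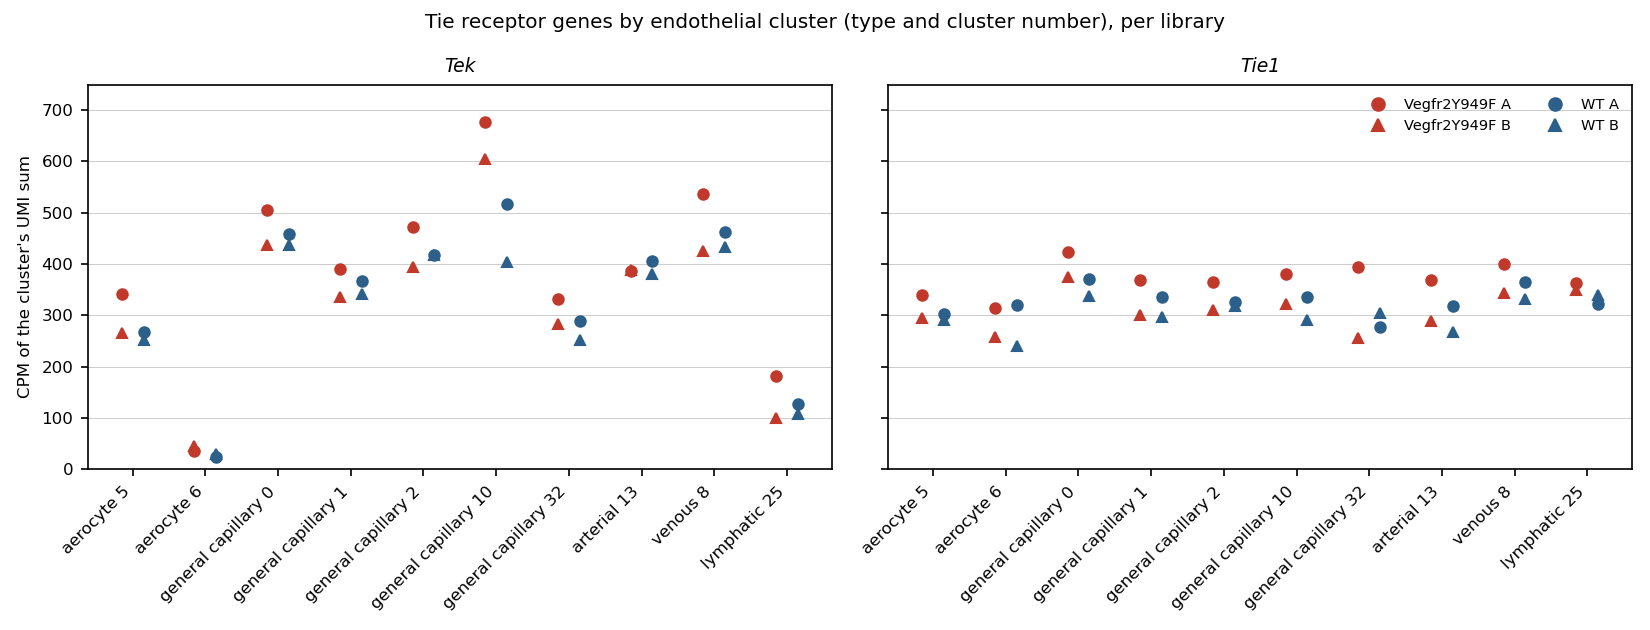
Tek and Tie1 CPM (y axis) in each endothelial cluster (x axis, type and cluster number), 1 point per library, with Vegfr2Y949F in red left of WT in blue. Tek separates aerocyte cluster 6 (23.4 to 44.4 CPM) from aerocyte cluster 5 (251 to 341 CPM), while Tie1 stays between 240 and 340 CPM in both.

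In large vessels the receptors and both ligands were compared between arterial and venous cells, a contrast that called 23.8% of 10477 genes. Tek was lower in arterial cells by a log2 difference of -0.28 ± 0.07 (SE, edgeR, adjusted p = 0.00651), and Tie1 by -0.25 ± 0.06 (adjusted p = 0.0107). Angpt2 was lower as well, by -1.17 ± 0.38 (adjusted p = 0.0375), on 22 UMIs in arterial and 61 UMIs in venous cells. Its means were 2.75 CPM in arterial and 8.24 CPM in venous cells of Vegfr2Y949F libraries. In WT libraries they were 2.09 and 2.45 CPM, so the gap lay mostly in Vegfr2Y949F libraries. With one library left out, Angpt2 had enough UMIs to be tested in only 2 of 4 fits. Angptl2 was higher in arterial cells, by 1.50 ± 0.40 (adjusted p = 0.0128), on 55 UMIs in arterial and 24 UMIs in venous cells. That call was lost without the Vegfr2Y949F A library (adjusted p = 0.0892) or the WT A library (adjusted p = 0.0511). Angpt1 had 1.03 ± 0.41 and did not pass (adjusted p = 0.0934), and without the Vegfr2Y949F A library it did (adjusted p = 0.0368). Angptl4 had too few UMIs to be tested there.

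Angptl4, the lipoprotein lipase inhibitor, was led by pericytes, at 588 and 543 CPM in Vegfr2Y949F libraries and 757 and 680 CPM in WT libraries. Both Vegfr2Y949F libraries were below both WT libraries, and 23.4% of genes tested in all stromal sums also had genotypes that did not overlap. The share within pericytes was not computed. Alveolar fibroblasts had 305 and 208 CPM in Vegfr2Y949F libraries and 327 and 263 CPM in WT libraries, with overlap, and their clusters 4, 12 and 14 had 340, 170 and 147 CPM over all libraries. Smooth muscle had 180 and 115 CPM in Vegfr2Y949F libraries and 227 and 165 CPM in WT libraries. Alveolar macrophages were the one immune type near these levels, at 145 and 100 CPM in Vegfr2Y949F libraries and 119 and 121 CPM in WT libraries. Pericytes stood apart from alveolar fibroblasts, which overlapped smooth muscle, which overlapped alveolar macrophages, and macrophages were above adventitial fibroblasts (55.0 CPM on average) in every library. Blood endothelial cells held only 2.44 and 1.48 CPM in Vegfr2Y949F libraries and 2.02 and 1.86 CPM in WT libraries.

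Angptl2, the inflammation-linked relative, was led by pericytes too, at 576 and 456 CPM in Vegfr2Y949F libraries and 507 and 466 CPM in WT libraries, with the genotypes overlapping. Smooth muscle had 208 and 133 CPM in Vegfr2Y949F libraries and 284 and 161 CPM in WT libraries, and myofibroblasts 156 and 126 CPM in Vegfr2Y949F libraries and 136 and 153 CPM in WT libraries. Alveolar fibroblasts, where Angpt1 and Angptl4 were high, had 57.1 and 59.5 CPM of Angptl2 in Vegfr2Y949F libraries and 45.5 and 48.4 CPM in WT libraries. Outside stroma no type averaged more than 6.69 CPM. Against alveolar fibroblasts, pericytes were higher by 2.94 ± 0.09 on the log2 scale for Angptl2 (SE, edgeR, adjusted p = 4.8e-32) and by 0.91 ± 0.09 for Angptl4 (adjusted p = 6.5e-13). Neither Tek nor Tie1 was called between these types.

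**Figure D3:**
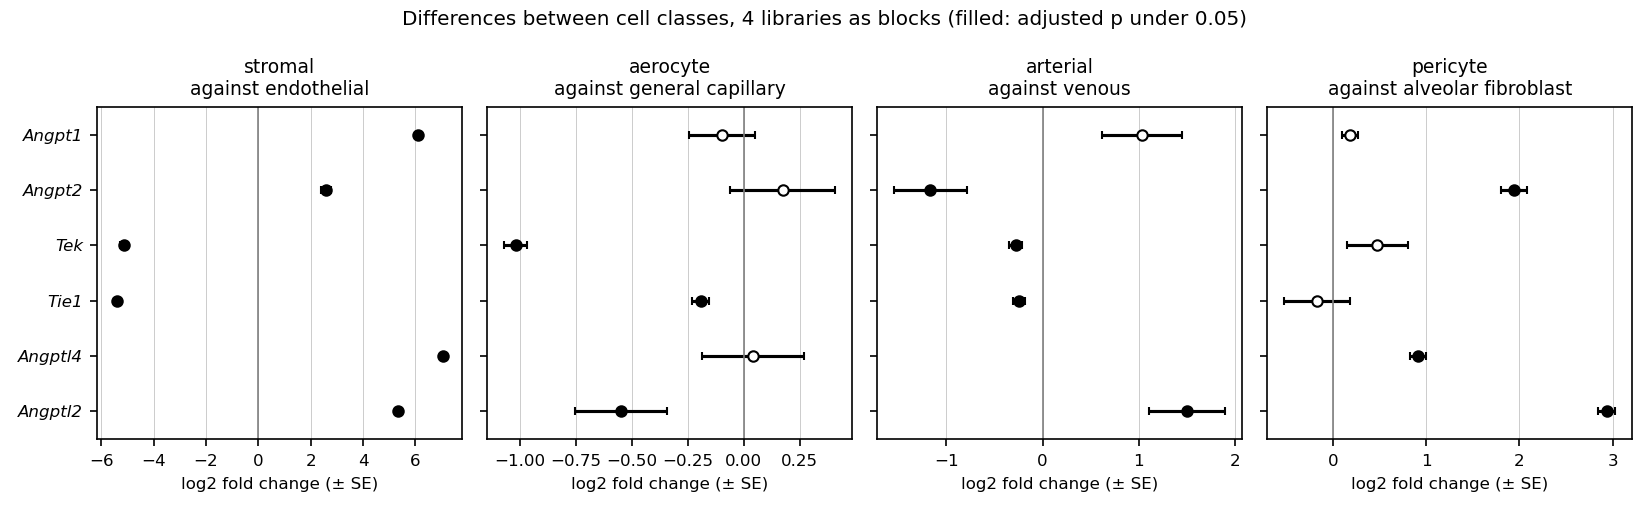
Log2 differences with SE (x axis) of the 6 genes in the 4 contrasts between cell types, 1 panel per contrast, over 4 libraries. Angpt1, Angptl4 and Angptl2 lie at 5.34 or more above 0 in stromal against endothelial cells, and Tek and Tie1 at -5.15 or lower.

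The genes most like each member across the 20 types were found by Pearson's r of log2(CPM + 1), a description over types that share libraries and depth. Angpt1 was closest to Ppp1r14a (0.960), Wasf3 (0.958) and Ednra (0.955). Angpt2 had weaker neighbours, Rgs7bp (0.876), Ecm2 (0.874) and Jam3 (0.862), and none of these remained among its leading 3 with a pseudocount of 10. Tek was closest to Ptprb (0.981), Adgrl4 (0.978) and Gata2 (0.978), and Tie1 to Ccm2l (0.992), Cldn5 (0.988) and Egfl7 (0.987). Ptprb, Gata2, Cldn5 and Egfl7 were among the markers used to name clusters. Angptl4 was closest to Nr1h3 (0.952), Rem1 (0.898) and Ppp1r14a (0.855), and Angptl2 to Arhgap42 (0.971), Col5a3 (0.963) and Ednra (0.961). Between members, r was 0.961 for Tek and Tie1, 0.936 for Angpt1 and Angptl2, and 0.671 for Angpt1 and Angpt2.

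Genes that act with the members were compared between the compartments, in a contrast where 39.9% of all genes were higher and 38.9% lower in stromal cells. Of 18 Tie receptor partners and signalling genes tested, 7 were higher and 11 lower in stromal than in endothelial cells, with a median log2 difference of -0.44 against 0.01 over all genes. Ptprb was lower in stroma (-5.90 ± 0.13), as was Nos3, the endothelial nitric oxide synthase (-4.96 ± 0.17), and Svep1, a matrix protein of lymphatic vessel growth, was higher (7.78 ± 0.12). Of 10 genes that regulate or act with Angptl4, 3 were higher and 6 lower, with a median of -0.30. Gpihbp1, which carries lipoprotein lipase across the capillary wall, was lower in stroma (-5.52 ± 0.18), and so was the lipase gene Lpl (-2.28 ± 0.08). Ptprb and Gpihbp1 were among the general capillary markers used to name clusters, so their differences are not independent of the naming. Of 6 integrins reported to bind angiopoietins, 2 were higher and 3 lower (median -0.42), and of 3 Angptl2 receptors none was higher and 2 were lower (median -1.72). Of 4 other angiopoietin-like genes tested, 3 were higher and 1 lower (median 5.96). Between aerocytes and general capillary cells, 2 of 17 Tie partners were higher and 8 lower in aerocytes (median -0.09, against -0.02 over all genes), in a contrast that called 56.4% of all genes. Ptprb, one of the naming markers, was lower there by a log2 difference of -1.01 ± 0.05. Grb14, an adaptor protein that binds Tek, was higher (3.37 ± 0.11). The integrin gene Itgb5 was higher in aerocytes as well (4.51 ± 0.10), among 2 of 6 integrins higher and 2 lower (median -0.21).

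By genotype, no member passed the main test in blood endothelial cells. edgeR called 0% of 14057 genes there, with 165 at an unadjusted p under 0.05, and DESeq2 called 9 genes and no member. Without the WT B, WT A or Vegfr2Y949F A library edgeR called 35, 19 and 1 genes, none of them a member. Angpt2 was the one member with an unadjusted p under 0.05. When the low-count filter was left out it passed, in endothelium and in general capillary cells, as given with the alternatives. It stood at 4.81 and 6.66 CPM in Vegfr2Y949F endothelium, against 2.75 and 2.58 CPM in WT endothelium. Both Vegfr2Y949F libraries were above both WT libraries, with a log2 difference of 1.05 ± 0.27 (SE, edgeR, unadjusted p = 0.00655, adjusted p = 1.00). The p-values measure the spread between 2 pools per genotype. Among endothelial cells with at least 2000 UMIs, each thinned to 2000, 1.17% and 1.28% in Vegfr2Y949F libraries held an Angpt2 UMI. In WT libraries 0.485% and 0.518% did. The exact permutation p was 0.333, the smallest that 2 libraries against 2 can give, and 0.889 after adjustment over 12 tests.

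General capillary cluster 10 moved with this difference. Its leading genes were Plvap, Ifit1, Lyve1 and Esm1, and it held 13.7% and 21.4% of general capillary cells in Vegfr2Y949F libraries, against 0.691% and 1.08% in WT libraries. It held 67 and 96 Angpt2 UMIs in Vegfr2Y949F libraries and 2 and 0 UMIs in WT libraries. Without it, endothelial Angpt2 was 3.67 and 4.93 CPM in Vegfr2Y949F libraries and 2.71 and 2.59 CPM in WT libraries, a log2 difference of 0.64 (edgeR, unadjusted p = 0.0495, adjusted p = 1.00). In general capillary cells alone it was then 2.51 and 4.46 CPM in Vegfr2Y949F libraries and 2.00 and 2.69 CPM in WT libraries, which overlapped. Leaving out the Vegfr2Y949F B library took the log2 difference in endothelium to 0.73, on an edgeR fit with 1 Vegfr2Y949F library. Venous cells, which are outside that cluster, had a log2 difference of 1.66 ± 0.50 (edgeR, unadjusted p = 0.00727, adjusted p = 1.00), and general capillary cells with the cluster 1.27 ± 0.35 (unadjusted p = 0.0102, adjusted p = 1.00).

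Neither receptor was called by genotype. Endothelial Tek was 435 and 377 CPM in Vegfr2Y949F libraries and 377 and 347 CPM in WT libraries, a log2 difference of 0.10 ± 0.16. Without cluster 10, endothelial Tek was 412 and 335 CPM in Vegfr2Y949F libraries and 377 and 347 CPM in WT libraries, and the difference turned to -0.019. Tie1 was 372 and 311 CPM in Vegfr2Y949F libraries and 339 and 304 CPM in WT libraries, a log2 difference of 0.02 ± 0.16. In both genes, with cluster 10 in, the A library was the higher one of each genotype and the genotypes overlapped. Angpt1 had 0.32 ± 0.23, Angptl4 -0.05 ± 0.31 and Angptl2 0.43 ± 0.31 in endothelium. The libraries of the genotypes did not overlap for 2 of the 6 genes, Angpt1 and Angpt2, both higher in Vegfr2Y949F, while the same held for 22.1% of all genes tested.

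In stromal cells, edgeR called 0% of 13098 genes by genotype, with 161 at an unadjusted p under 0.05 and no member among them, and DESeq2 called 2 genes and no member. Without the WT A, WT B or Vegfr2Y949F B library edgeR called 24, 12 and 2 genes, none of them a member. Angpt1 had a log2 difference of 0.11 ± 0.18 and did not overlap between genotypes, which was so for 1 of the 6 genes and 23.4% of all genes. Angpt2 was 24.9 and 23.1 CPM in Vegfr2Y949F stroma and 23.7 and 22.2 CPM in WT stroma, a log2 difference of 0.02 ± 0.17. Angptl4 was 276 and 198 CPM in Vegfr2Y949F stroma and 301 and 247 CPM in WT stroma, a log2 difference of -0.26 ± 0.20 (edgeR, unadjusted p = 0.213). Angptl2 had 0.09 ± 0.17. The genotype difference in Angpt2 was itself compared between stromal and endothelial cells, a test added after seeing the data that called 0% of 15047 genes. The interaction was -1.03 ± 0.22 on the log2 scale (edgeR, unadjusted p = 0.00141, adjusted p = 1.00).

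**Figure D4:**
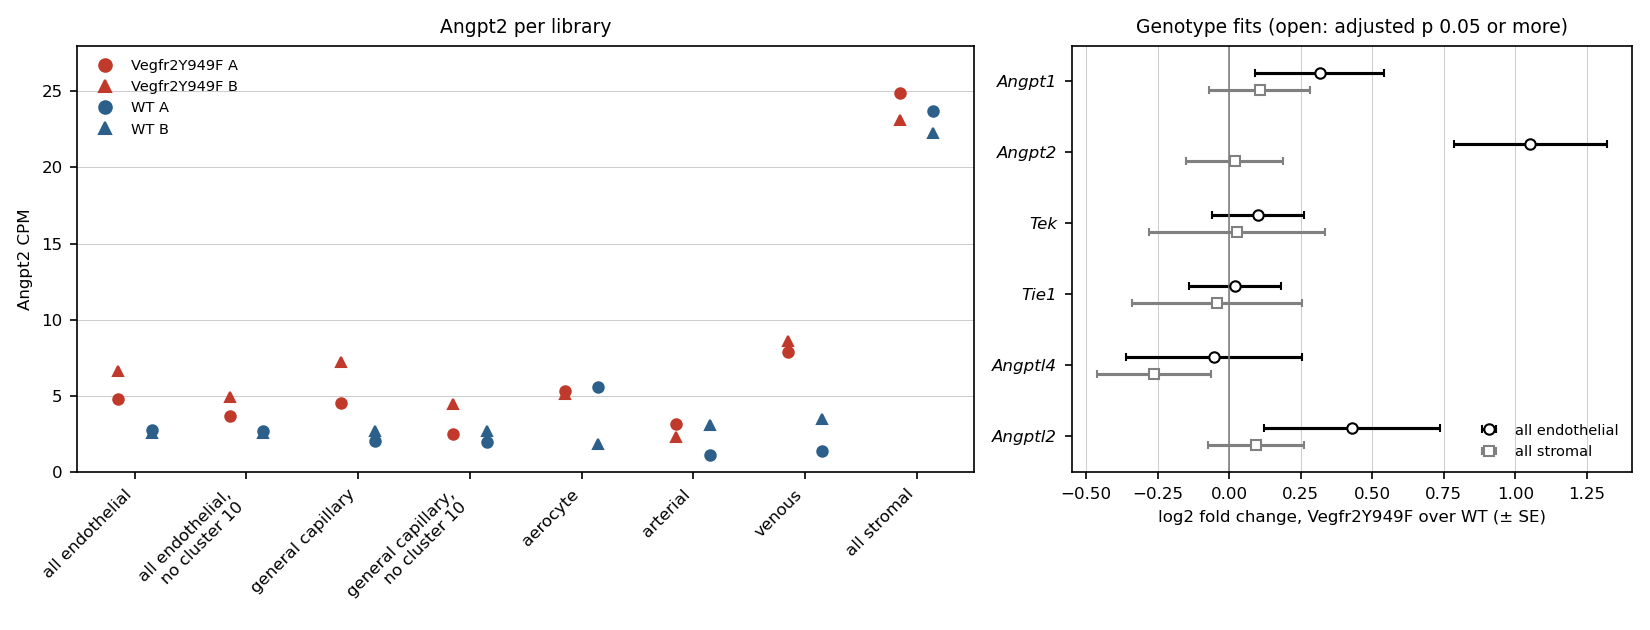
Left, Angpt2 CPM per library in blood endothelial cells, with and without general capillary cluster 10, in their types and in stromal cells, Vegfr2Y949F in red left of WT in blue. Right, log2 differences with SE (Vegfr2Y949F over WT) of the 6 genes in blood endothelial and stromal cells, where endothelial Angpt2 is the value farthest from 0 at 1.05.

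Among single cell types, 16 had at least 20 cells in every library, and 58 pairs of a gene and a type had enough UMIs to be tested by genotype. edgeR with its low-count filter called none of the 58, DESeq2 called none either, and 5 had an unadjusted p under 0.05 in edgeR. Over all genes edgeR called 0.0248% in alveolar fibroblasts, 0.0295% in club cells and 0% in each of the other types. The pairs with an unadjusted p under 0.05 were Angpt2 in general capillary and venous cells and Angpt1 in aerocytes (log2 difference 0.68). The others were Angptl2 in adventitial fibroblasts (0.50, and 0.22 without the Vegfr2Y949F B library) and Tie1 in alveolar type 1 cells (0.88). Over all genes, edgeR gave such a p to 211 of 13306 in general capillary and 164 of 10226 in venous cells. It did so for 165 of 11558 in aerocytes, 306 of 9913 in adventitial fibroblasts and 254 of 9529 in alveolar type 1 cells. In alveolar type 1 cells the summed endothelial lineage markers were 209 and 261 CPM in Vegfr2Y949F libraries and 148 and 170 CPM in WT libraries, and Tek had a log2 difference of 0.81, and the part of endothelial RNA in the Tie1 value was not tested. The genotype difference in Angpt2 did not differ detectably between aerocytes and general capillary cells (interaction -0.82, edgeR, unadjusted p = 0.0732, adjusted p = 1), in a test that called 0.106% of genes. Between arterial and venous cells it was -1.29 (unadjusted p = 0.130), in a test that called 0%. No gene of the Tie partner, integrin, Angptl4, Angptl2 receptor or other angiopoietin-like lists had an unadjusted p under 0.05 by genotype in the edgeR fit of blood endothelial or of stromal cells. In endothelium the medians of the 18, 6, 10 and 3 genes tested were 0.05, 0.02, -0.07 and -0.02, beside -0.0044 over all genes.

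All 6 genes are annotated as protein coding in GENCODE M21 on mm10. Angpt1 lies at chr15:42424723-42676977 on the minus strand and shares 737 exonic bases with the antisense gene Gm17473, so its reads and those of Gm17473 cannot be told apart where strand was not used in counting. Angpt2 (chr8:18690263-18741562, minus strand) lies inside Mcph1 and Angptl2 (chr2:33216069-33247717, plus strand) inside Ralgps1, each on the other strand and with 0 shared exonic bases. Tek lies at chr4:94739289-94874976 on the plus strand, Tie1 at chr4:118471191-118490061 on the minus strand, and Angptl4 at chr17:33773750-33781830 on the minus strand.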

How the data were processed

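Lung cell suspensions of 2 mice each were profiled in 10x Genomics droplets. The deposited matrices hold whole-number UMI counts per gene and barcode, made by the authors with Cell Ranger 6.1.1, per the file headers. Per the submitters' processing notes, the tools also included Seurat 4.1.0, UMI-tools and fastp, with mm10 as build. Neither the annotation nor the use of strand in counting was given in the sources used here. Libraries held 11992 to 15160 barcodes and 83606389 to 96521589 UMIs.

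Cells with at least 500 genes, 1000 UMIs and under 15% mitochondrial UMIs were kept, the top 8% of Scrublet doublet scores per library were removed, and 2000 variable genes, without the 6 members and Kdr, were clustered (scanpy 1.11.5, leidenalg 0.10.2, resolution 1). A cluster took a type's name with at least 3 markers in 20% of its cells and a lead of 0.3 in score. The authors' cell annotation was not used here. Counts were summed per library and type and tested with edgeR 4.0.16 (quasi-likelihood, TMM, filterByExpr, Benjamini-Hochberg over all genes tested, calls at an adjusted p under 0.05), with library as a block between cell types. DESeq2 1.42.0 was an alternative. Shares of cells were compared after thinning to 2000 UMIs, over cells with at least that many, with an exact two-sided permutation test. Members, gene lists and tests were chosen with earlier results of these data known. The edgeR genotype fits of blood endothelial and stromal sums were tested on simulated data with large changes in genes of high counts. Contrasts between cell types, interactions and changes in sparse genes were not simulated. Floors for a count of 0 use 3 counts and cover counting error only. Named genes are the members, list genes by counts with examples chosen after their values were seen, and the 3 genes with the highest r per member among genes of at least 10 CPM in 1 type. Chi-square tests found more than sampling noise between all library pairs. What the letters A and B mark is not stated in the labels.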

Additional observations from a re-analysis of the deposited data

Results flagged for a closer look

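In 3 of 24 pairs of a member and a contrast between cell types, both Vegfr2Y949F libraries moved one way and both WT libraries the other way. Over all genes with at least 10 UMIs, the same was seen for 4.18% between aerocytes and general capillary cells, 7.62% between arterial and venous cells, 3.84% between pericytes and alveolar fibroblasts and 2.21% between stromal and endothelial cells. Angpt1 was higher in aerocytes than in general capillary cells in both Vegfr2Y949F libraries, by 0.392 CPM on average (5.15 and 4.88 against 5.09 and 4.16 CPM), and lower in both WT libraries (3.06 and 3.01 against 3.36 and 4.47 CPM). The edgeR interaction for it was 0.46 (unadjusted p = 0.142, adjusted p = 1). Angptl4 was lower in arterial than in venous cells of Vegfr2Y949F libraries, with a mean difference of -0.468 CPM (3.46 and 1.16 against 3.71 and 1.84 CPM), and higher in those of WT libraries (2.22 and 5.51 against 1.05 and 2.33 CPM), and this difference was not tested. Tie1 was higher in pericytes than in alveolar fibroblasts of Vegfr2Y949F libraries, by 2.16 CPM on average (8.45 and 7.44 against 7.59 and 3.97 CPM), and lower in those of WT libraries (5.23 and 4.67 against 6.06 and 5.66 CPM), and this difference was not tested. All 3 rest on levels of a few CPM.

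Cells of clusters that took no name entered no comparison and still held UMIs of every member. Averaged over the 4 libraries they held 14.04% of the UMIs of Angpt1, 8.19% of Angpt2, 9.79% of Tek, 9.11% of Tie1, 12.98% of Angptl4 and 13.6% of Angptl2.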

How the results depend on the processing

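Of 507 alternatives over 82 results, 458 were labelled the same or stronger. For edgeR and DESeq2 tests, this means the same direction and the same side of the threshold, or coming to pass it. For shares of cells it means the same direction only. For counts of genes it means a count equal to the main one or within a set ratio of it. The stromal against endothelial calls of all 6 members, the Tek and Tie1 calls between aerocytes and general capillary cells and between arterial and venous cells, and the Angpt2, Angptl4 and Angptl2 calls between pericytes and alveolar fibroblasts were kept in every alternative run. In endothelium the genes called by genotype numbered 48 without a low-count filter, 9 with DESeq2, 14 with the replicate block and 0 to 35 leaving out one library. In stroma they numbered 4, 2, 36 and 0 to 24 under the same settings. Deviations of libraries with the same letter correlated at 0.42 in endothelium and 0.26 in stroma, but with 2 pairs the letter is only a shared label. With the block, endothelial Angpt2 had an adjusted p of 0.265, and stromal Tek turned to -0.0027. Without the filter, endothelial Angpt2 passed (1.05, adjusted p = 0.0363), as did general capillary Angpt2 (1.26, adjusted p = 0.00527) and arterial against venous Angpt1 (1.02, adjusted p = 0.0198), and 2 members were called in named types, with 0 to 1 leaving out one library (Tek in club cells without WT A, adjusted p = 0.000113, and in smooth muscle without Vegfr2Y949F B, adjusted p = 0.0121). The genotype fits that leave out one library, such as those of Tek, have 1 library in an arm, whose spread is assumed to be that of the other arm. The fits without the filter used all 4 libraries. The summed endothelial markers stood at 482 and 46.5 CPM in Vegfr2Y949F and 186 and 20.6 CPM in WT club cells, and at 783 and 46.6 CPM in Vegfr2Y949F and 456 and 257 CPM in WT smooth muscle, and their part was not tested. Without general capillary cluster 10, endothelial Tek was -0.019. Stricter cells gave -0.029 for stromal Tek, -0.046 for Angptl4 between aerocytes and general capillary cells, and 0.20 (adjusted p = 0.0458) for Angpt1 between pericytes and alveolar fibroblasts. Keeping doublets gave 0.31 for stromal Tie1 and -0.056 for the aerocyte Angptl4 difference. A cluster resolution of 2 gave -0.078 for the aerocyte Angpt2 difference, -0.12 for Angptl4 and -0.44 (adjusted p = 0.0996) for Angptl2. The cause was not tested.

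Leaving out each library in turn gave log2 differences by genotype of 0.15 to 0.50 for endothelial Angpt1, 0.16 to 0.69 for endothelial Angptl2, -0.044 to 0.083 for endothelial Tie1, -0.38 to 0.20 for endothelial Angptl4, -0.0085 to 0.056 for stromal Angpt2, -0.51 to 0.44 for stromal Tek, -0.50 to 0.33 for stromal Tie1, 0.048 to 0.18 for stromal Angpt1, -0.45 to -0.093 for stromal Angptl4 and -0.016 to 0.20 for stromal Angptl2. For Angpt2 it gave 0.82 to 1.62 in general capillary and 1.16 to 2.52 in venous cells, and for Angptl2 in adventitial fibroblasts 0.22 to 0.72. Between aerocytes and general capillary cells it gave -0.19 to 0.038 for Angpt1, -0.21 to 0.47 for Angpt2, -0.11 to 0.23 for Angptl4 and -0.81 to -0.47 for Angptl2. Between arterial and venous cells it gave 0.49 to 1.40 for Angpt1 and 1.19 to 2.07 for Angptl2. Without thinning, the stromal shares of cells with a UMI turned to -1.24 percentage points for Angpt1, -0.991 for Angpt2, -0.229 for Tek and -0.883 for Angptl2, Vegfr2Y949F minus WT. With a pseudocount of 10, the leading 3 similar genes shared 0 for Angpt2, 1 for Tie1 and 1 for Angptl2. Depth limits Angpt2 in endothelium, where 701 UMIs carry all 4 libraries.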
